A study of Mus musculus with 9 samples.

Results

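Transcripts of 9 thioredoxin genes were examined in the testis of mice with and without Prm2, which encodes protamine-2, a small basic protein that packs DNA in the sperm head. The members were taken by symbol from the deposited gene table, and all 9 were found among its 38685 genes. They are the general thioredoxins Txn1 and Txn2, the thioredoxin-domain genes of spermatids and sperm Txndc2, Txndc8 and Nme8, the reductases Txnrd1, Txnrd2 and Txnrd3, and the thioredoxin-like gene Txnl1. RNA came from whole testis, stripped of its tunica albuginea, of C57BL/6 males of 3 genotypes. These were wildtype (Prm2+/+, n = 3), heterozygous (Prm2+/-, n = 3) and deficient (Prm2-/-, n = 3) animals, and their ages were not given in the labels. The lines were made by CRISPR/Cas9 editing in oocytes, so the loss of Prm2 is present in all cells of the animal. Prm2+/- males are fertile and Prm2-/- males are not, and the study followed oxidative damage in the sperm of the latter. The question for these genes is whether the thioredoxin transcripts of the testis differed with genotype.

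Thioredoxins are small proteins that reduce disulfides in other proteins with a pair of cysteines, and thioredoxin reductases restore them with electrons from NADPH. The mammalian reductases are selenoproteins, in which a TGA codon near the end of the reading frame is read as selenocysteine and not as a stop. Spermatids carry their own set of such proteins beside those of other cells. In these cells the chromatin is condensed on protamines whose cysteines form disulfides, and the outer structures of the tail are likewise held by disulfides.

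The coding sequence around the active site is shown for the thioredoxins, because it is the part these proteins have in common whatever else they contain. Each stretch has 30 coding bases, 5′ to 3′ on the coding strand, from GENCODE M21 transcripts on GRCm38, and the capitals mark the codons of the cysteine pair. All lie in coding exons on the minus strand, at chr4:57951812-57951841 for Txn1, chr17:65637732-65637761 for Txndc2, chr4:58007090-58007119 for Txndc8 and chr13:19696650-19696679 for Nme8. The stretch of Txn2 is spliced from exons on both sides of an intron within chr15:77924642-77927696.
Txn1: gctacgtggTGTggacctTGCaaaatgatc
Txn2: gcacagtggTGTggccccTGCaagatccta
Txndc2: gccgcttggTGTggccccTGCagaatgatg
Txndc8: gcaaagtggTGTggccccTGCaaaacaatt
Nme8: caagcctggTGTggacctTGCaaagccgtg
The tryptophan codon before the first cysteine and both cysteine codons were identical in all of them. Of the 30 bases, Txn1 had 23 in common with Txndc2, 23 with Txndc8, 21 with Txn2 and 20 with Nme8, and the closest pair was Txn2 and Txndc8 with 24. The reading frames differed far more in length, with 318 coding bases in Txn1, 462 in Txndc8, 501 in Txn2, 1653 in Txndc2 and 1761 in Nme8.

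For the reductases the end of the reading frame is shown, with the selenocysteine codon in capitals, because the active enzyme needs this codon to be read through. These stretches lie on the plus strand, in the last coding exon, at chr10:82896016-82896045 for Txnrd1, chr16:18477751-18477780 for Txnrd2 and chr6:89674768-89674797 for Txnrd3.
Txnrd1: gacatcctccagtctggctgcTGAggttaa
Txnrd2: gagcctactgtgactggttgcTGAggctaa
Txnrd3: gacattactcagaaaggctgcTGAggctag
In each of the 3 genes the TGA codon follows a cysteine codon and is followed by a glycine codon and the stop. Txnrd3 had 21 of 30 bases in common with either of the others, and Txnrd1 and Txnrd2 had 18.

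The 9 libraries held between 3629929 and 4490411 counts each, with between 19028 and 20526 genes above 0. Values are normalized counts, that is read counts divided by 1 size factor per library. Markers of late spermatids (Prm1, Tnp1, Tnp2, Odf1, Akap4) summed to between 191959 and 214225 normalized counts in every library. Akap4, a small part of that sum, was uneven between libraries. It had 208, 2133 and 194 normalized counts in Prm2+/+, 1935, 1910 and 272 in Prm2+/-, and 2077, 1980 and 2148 in Prm2-/-. The 5 Sertoli cell markers summed to between 493 and 729, with Amh at 0 throughout and 3 of the 5 above 0 in all libraries. The 5 epididymal markers summed to at most 21.9, with Lcn5 and Lcn8 at 0 throughout. The sum of the 5 pachytene markers was 10137 in 1 Prm2+/+ library and up to 45684 elsewhere. Ldhc took most of this gap, with 2505 normalized counts in that library and between 27414 and 36393 in the others, while Piwil1 had 2654 there and between 2792 and 3075 in the others. Sycp3 and Spag6 were lowest in the same library too, with 538 against 624 to 1083 and 309 against 471 to 664. The 5 round spermatid markers summed to between 5345 and 8249. Of these, Spaca1 was also lowest in that library, with 285 against 862 to 1066 in the others. Acrv1 was highest there, with 1744 against 1302 to 1428. Mael departed in other libraries. It had 168 to 230 normalized counts in Prm2+/- replicates 1 and 2 and Prm2-/- replicates 1 and 3, and 4130 to 4851 in the rest. No marker gene passed the test in any comparison. Prm2 itself had 29757, 29716 and 39665 normalized counts in the wildtype libraries, 30174, 31011 and 34487 in the heterozygous ones and 34660, 36004 and 42766 in the deficient ones. The groups overlapped, with a log2 fold change (LFC) of 0.20 (SE 0.13, 95% interval -0.10 to 0.50, adjusted p = 0.746, limma) for Prm2-/- against Prm2+/+. Where the edit lies relative to the 3′ end that was sequenced is not given in the sources used here, so these counts do not check the genotype labels. In whole-testis RNA, fewer cells of a type and less RNA per cell cannot be told apart.

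None of the thioredoxin genes tested passed the limma test between any genotypes, and 1 of them, Txnrd1, passed only in DESeq2 on the 6 samples of Prm2-/- and Prm2+/-. Of the 9 members, 8 had enough counts to be tested, all except Txnrd2. A gene was called at an adjusted p under 0.05 with an LFC beyond 0.5, and p-values were adjusted over the 14893 genes tested. In Prm2-/- against Prm2+/+ testes, 0 of the 8 were called, where 0.181% of all genes tested were called, 23 higher and 4 lower. At an unadjusted p under 0.05 the count was also 0 of 8, where 7.33% of all genes tested had such a p, and edgeR and DESeq2 on the recovered counts called 0 as well. The LFC was above 0 for 4 of the 8 and their median was 0.00, against a median of 0.02 over all genes tested. The libraries of the genotypes did not overlap for 2 members, Txndc8 and Txnl1, where 14.0% of all genes tested showed no overlap.

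Between Prm2+/- and Prm2+/+ testes, 0 of the 8 members were called by limma, edgeR or DESeq2, where limma called 0.0806% of all genes tested. An unadjusted p under 0.05 in limma was found for 0 of them, where 4.24% of all genes tested had one. No member had libraries without overlap in this comparison, where 9.44% of all genes tested did. The median LFC was 0.04 over the members and 0.01 over all genes tested. Between Prm2-/- and Prm2+/- testes, limma called 0 of 8, where 0.175% of all genes tested were called, and edgeR and DESeq2 on all 9 samples also called 0. Here 2 members, Txnrd1 and Txnl1, had an unadjusted p under 0.05 in limma, where 5.44% of all genes tested had one. The same 2 had libraries without overlap, where 14.7% of all genes tested had no overlap. DESeq2 fitted to the 6 samples of this comparison called 1 member, Txnrd1, with an LFC of 1.47 (adjusted p = 0.0117). Over all genes, no alternative fit of this comparison called more than 129 genes higher or 29 lower. The comparisons share their libraries, so they are not independent of each other.

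**Figure D1:**
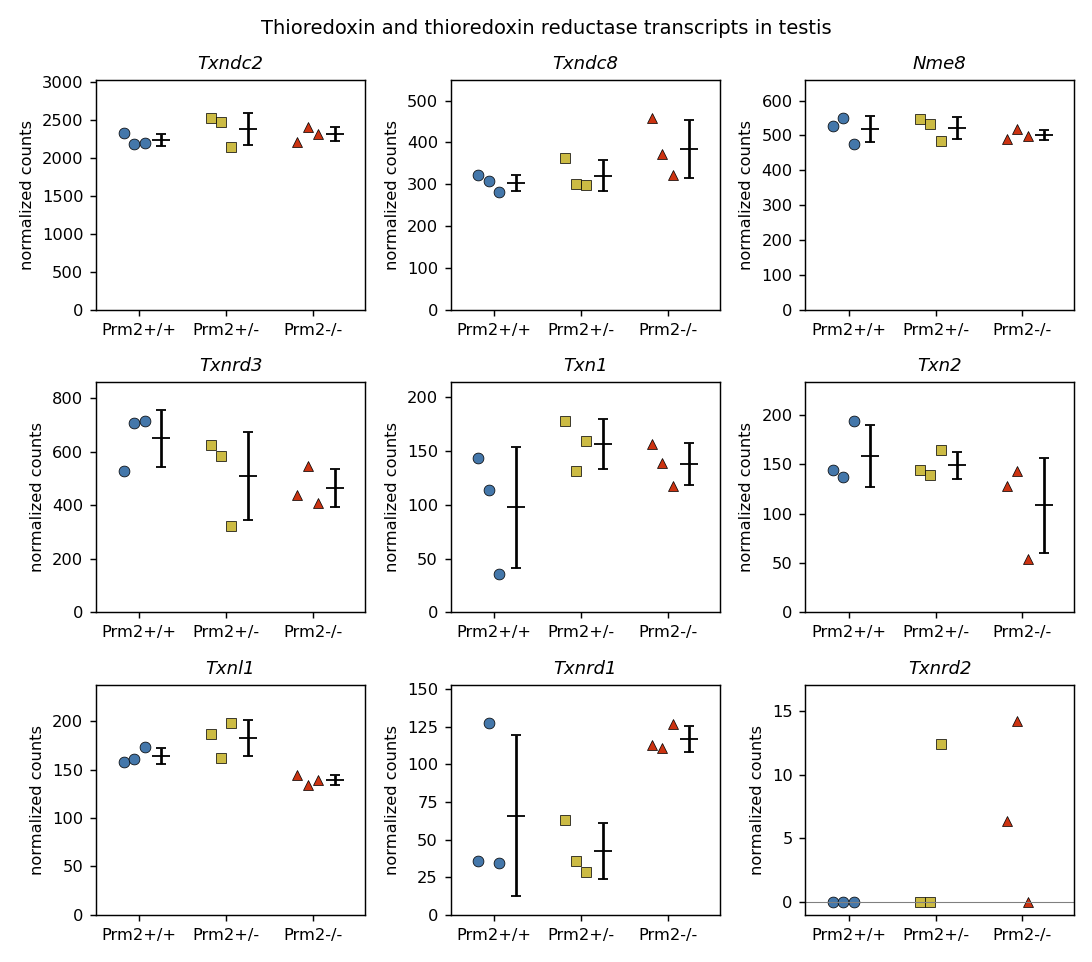
Normalized counts of each member in the 9 testis libraries, with 1 panel a gene, its own vertical axis and 1 point a library. Bars give the mean and SD of 3 libraries and are left out for Txnrd2, which was at 0 in 6 of 9 libraries. Txndc2 lay between 2142 and 2529 in every library, while Txn1, Txn2, Txnrd1 and Txnrd3 each had libraries far from the rest of their genotype.

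Txndc2 (ENSMUSG00000050612, chr17:65637507-65642168) encodes a thioredoxin of late spermatids that is placed in the fibrous sheath of the sperm tail. It had 2330, 2185 and 2204 normalized counts in the Prm2+/+ libraries, 2529, 2478 and 2142 in Prm2+/-, and 2219, 2409 and 2323 in Prm2-/-. All 3 genotypes overlapped, and the highest library was 1.18 times the lowest. The means were 2240 ± 78.7 (SD, n = 3), 2383 ± 210.3 and 2317 ± 95.3 normalized counts. The LFC was 0.05 for Prm2-/- against Prm2+/+ (SE 0.08, 95% interval -0.13 to 0.23, adjusted p = 0.882, limma). For Prm2+/- against Prm2+/+ it was 0.09 (95% interval -0.10 to 0.27). For this gene the intervals of all comparisons lay within the fold threshold of 0.5.

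Nme8 (ENSMUSG00000041138, chr13:19645078-19697794) encodes a protein with a thioredoxin domain ahead of nucleoside diphosphate kinase domains, found in the sperm tail. Its libraries read 526, 549.7 and 476 normalized counts in Prm2+/+, 547, 533 and 485 in Prm2+/-, and 489.9, 519 and 497 in Prm2-/-. This was the narrowest range of the members, with a ratio of 1.15 between the highest and the lowest library, and the genotypes overlapped. The LFC between Prm2-/- and Prm2+/+ was -0.04 (SE 0.09, 95% interval -0.25 to 0.16, adjusted p = 0.915, limma). Its coefficient of variation within genotypes was 5.82%, close to the 4.38% that counting error alone gives at this depth.

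Txndc8 (ENSMUSG00000038709, chr4:57984027-58009124) encodes a short thioredoxin of spermatids that is associated with the forming acrosome. On the chromosome it lies 27615 bp from Txn1, on the same strand. It had 321, 308 and 282 normalized counts in the Prm2+/+ libraries. The Prm2+/- libraries held 363, 300.5 and 298, and the Prm2-/- libraries 458, 371 and 322. All Prm2-/- libraries were above all Prm2+/+ libraries, by 322 against 321 at the closest, while Prm2+/- overlapped with both. The LFC was 0.32 for Prm2-/- against Prm2+/+ (SE 0.15, 95% interval -0.02 to 0.67, unadjusted p = 0.0601, adjusted p = 0.6995, limma), with means of 384 ± 68.9 and 304 ± 20.0 (SD, n = 3). Prm2-/- against Prm2+/- gave 0.25 (95% interval -0.09 to 0.59) and Prm2+/- against Prm2+/+ gave 0.07 (95% interval -0.27 to 0.42).

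Txnrd3 (ENSMUSG00000000811, chr6:89643988-89675529) encodes thioredoxin-glutathione reductase, which joins a glutaredoxin domain to a thioredoxin reductase and is abundant in spermatids. Its Prm2+/+ libraries had 526, 705 and 716 normalized counts. In Prm2+/- the values were 624, 584 and 323, and in Prm2-/- they were 439, 545 and 409.7. The lowest library of the 9 was a Prm2+/- library, and the lowest Prm2+/+ library lay below the highest Prm2-/- library, so all genotypes overlapped. The LFC was -0.48 for Prm2-/- against Prm2+/+ (SE 0.26, 95% interval -1.08 to 0.12, adjusted p = 0.722, limma) and -0.39 for Prm2+/- against Prm2+/+ (95% interval -0.995 to 0.21). Without the Prm2+/- library at 323 the latter was -0.091. For Prm2-/- against Prm2+/+ the LFC without that library stayed at -0.48, but the 95% interval narrowed to -0.86 to -0.097. This left out 0 (unadjusted p = 0.0211, adjusted p = 0.665, limma). On the 6 samples of Prm2-/- and Prm2+/+ the interval was -0.91 to -0.051 (unadjusted p = 0.0340, adjusted p = 0.808, limma). Its coefficient of variation within genotypes was 22.2%, against 4.27% from counting error.

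**Figure D2:**
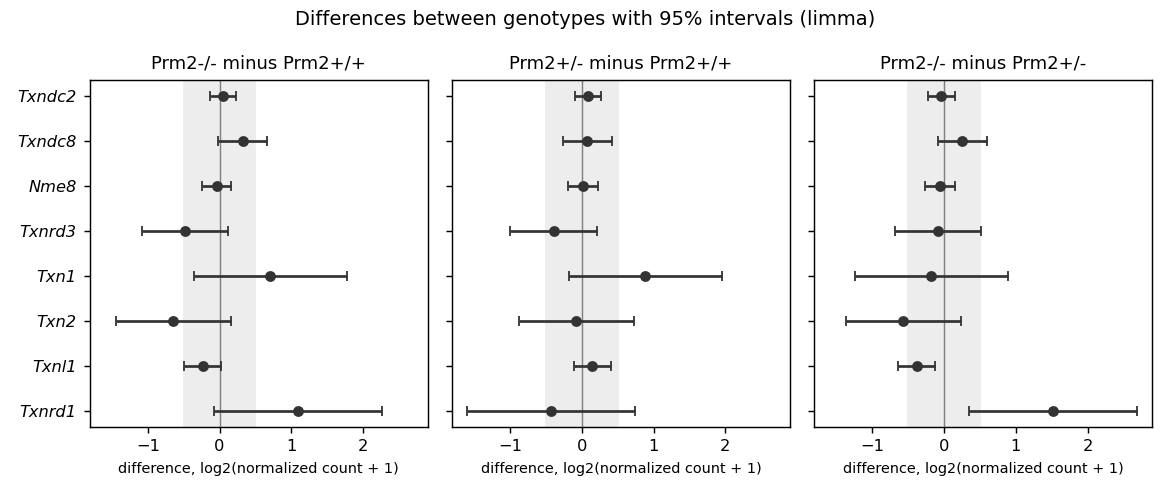
LFC of the 8 tested members in the 3 comparisons of genotypes, on the log2(normalized count + 1) scale. Points are the limma estimates, bars their 95% intervals over 9 libraries, and the grey band spans an LFC of 0.5 in either direction. Txndc2 and Nme8 have the narrowest intervals and Txn1 and Txnrd1 the widest, and only Txnrd1 and Txnl1 between Prm2-/- and Prm2+/- have intervals that leave out 0.

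Txn1 (ENSMUSG00000028367, chr4:57943373-57956411) encodes the thioredoxin of the cytosol and nucleus that most cells use. Its normalized counts were 143, 114 and 35.4 in Prm2+/+, 178, 132 and 159 in Prm2+/-, and 157, 139 and 117 in Prm2-/-. The value of 35.4 stood apart from the other 8 libraries, which lay between 114 and 178. It rests on 32 reads, and the same library had the low Ldhc count and pachytene sum given above, whose part in the result was not tested. With all libraries the LFC was 0.71 for Prm2-/- against Prm2+/+ (SE 0.46, 95% interval -0.36 to 1.77, adjusted p = 0.750, limma), and without that library it was 0.10 (adjusted p = 0.925). For Prm2+/- against Prm2+/+ it was 0.89 (95% interval -0.18 to 1.95), and 0.28 without that library.

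Txn2 (ENSMUSG00000005354, chr15:77915047-77929006) encodes the mitochondrial thioredoxin. The libraries had 144, 137 and 194 normalized counts in Prm2+/+, 144, 139 and 164 in Prm2+/-, and 129, 143 and 53.9 in Prm2-/-. A single Prm2-/- library was far below the other 8, and the remaining Prm2-/- values overlapped with both other genotypes. The LFC for Prm2-/- against Prm2+/+ was -0.65 (SE 0.35, 95% interval -1.45 to 0.15, adjusted p = 0.721, limma) and became -0.21 without that library. Between Prm2+/- and Prm2+/+ it was -0.07.

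Txnl1 (ENSMUSG00000024583, chr18:63661094-63708801) encodes a thioredoxin-like protein of the cytosol that binds the proteasome. Its normalized counts were 158, 161 and 173 in Prm2+/+, 187, 162 and 198 in Prm2+/-, and 144, 134 and 139 in Prm2-/-. All Prm2-/- libraries lay below all 6 others. The LFC was -0.24 against Prm2+/+ (SE 0.11, 95% interval -0.49 to 0.02, unadjusted p = 0.0651, adjusted p = 0.708, limma). Against Prm2+/- it was -0.38 (SE 0.11, 95% interval -0.64 to -0.13, unadjusted p = 0.00848, adjusted p = 0.748, limma). Both estimates were smaller than the fold threshold. Its exons overlap those of Wdr7 on the opposite strand by 117 bp, and whether the counting used strand is not given in the sources used here.

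Txnrd1 (ENSMUSG00000020250, chr10:82833951-82897712) encodes the reductase of the cytosol. It was measured at 36.1, 128 and 34.3 normalized counts in Prm2+/+, 63.3, 35.6 and 28.3 in Prm2+/-, and 113, 111 and 127 in Prm2-/-. The Prm2-/- libraries were all above the Prm2+/- libraries and above all but 1 Prm2+/+ library, whose value of 128 was the highest of the 9. The values fell at 2 levels, 28.3 to 63.3 and 111 to 128. Glrx5 and Akap4 were likewise low in Prm2+/+ replicates 1 and 3 and high in replicate 2, but differed from Txnrd1 in Prm2+/- libraries. Whether read assignment played a part was not tested. Prm2-/- against Prm2+/+ gave an LFC of 1.09 (SE 0.51, 95% interval -0.08 to 2.26, unadjusted p = 0.0635, adjusted p = 0.706, limma). Without the Prm2+/+ library at 128 it was 1.70 (adjusted p = 0.171). Prm2-/- against Prm2+/- gave 1.52 (SE 0.51, 95% interval 0.35 to 2.69, unadjusted p = 0.0171, adjusted p = 0.870, limma). The coefficient of variation within genotypes was 43.9%, against 11.5% from counting error, the highest of the tested members.

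Txnrd2 (ENSMUSG00000075704, chr16:18426384-18479073) encodes the mitochondrial reductase. It had 14 reads in 1 Prm2+/- library, 7 and 14 reads in 2 Prm2-/- libraries, and 0 reads in the other 6 libraries, among them all Prm2+/+ libraries. A count of 0 is compatible with up to 3 expected reads, for counting error only, and no fold was computed.

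**Figure D3:**
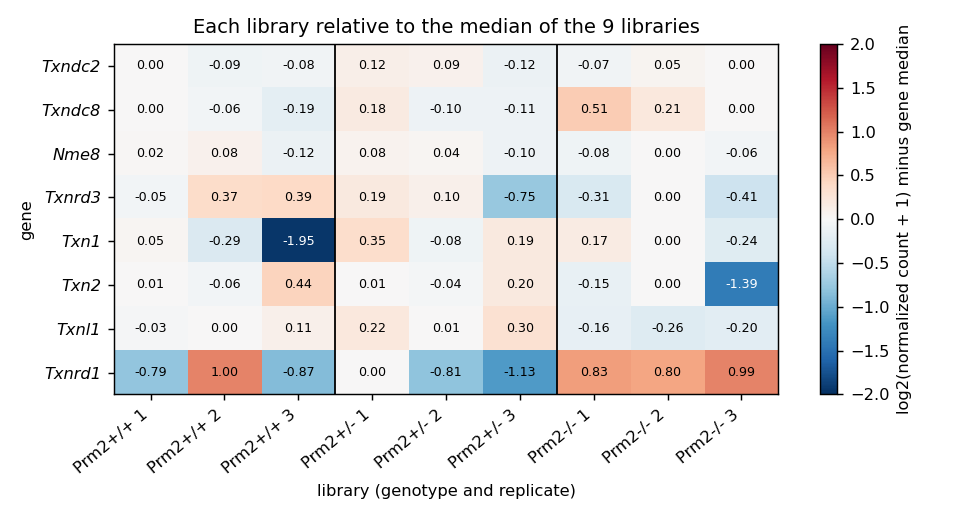
Deviation of each library from the median of the 9 libraries, on the log2(normalized count + 1) scale, for the 8 tested members. Columns are libraries by genotype and replicate number, and the printed number is the deviation. The lowest values are -1.95 for Txn1 in a Prm2+/+ library and -1.39 for Txn2 in a Prm2-/- library, and no single library stands apart for every gene.

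Levels were also set against each other. The kit reads 1 tag near the 3′ end of a transcript, so undivided counts are the suitable scale. By these the order was Txndc2, Txnrd3, Nme8, Txndc8, Txnl1, Txn2, Txn1, Txnrd1 and Txnrd2. Division by length favours short transcripts, such as the 620 bp of Txndc8, and is given for comparison. Per kb of the longest annotated coding transcript, Txndc2 had 1243 ± 73.5 normalized counts (SD, n = 9 libraries), above 97.6% of the 14860 genes that could be ranked. Next came Txndc8 with 542 ± 88.0 and Nme8 with 242 ± 12.9, and in each step from Txndc2 to Nme8 the libraries did not overlap. Txnrd3 followed with 191 ± 46.9, Txn1 with 124 ± 39.1, Txn2 with 67.7 ± 18.2, Txnl1 with 37.2 ± 4.94 and Txnrd1 with 20.7 ± 12.04 normalized counts per kb. From Nme8 down to Txnrd1 each gene overlapped with its neighbour in the order. Txnrd2 was last with 1.27 ± 2.04 and did not overlap with Txnrd1. Txndc8 thus stood at rank 4 by undivided counts and at rank 2 per kb, and the order of the members between Txndc2 and Txnrd1 differed between the scales.

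The composition of the system was also compared across libraries, as a description with no test. Txndc2, Txndc8, Nme8 and Txnrd3 together made up 87.9% ± 1.34 (SD, n = 9 libraries) of the summed normalized counts of the 9 members. That share was 88.4% ± 0.974 in Prm2+/+, 87.4% ± 2.03 in Prm2+/- and 87.8% ± 1.13 in Prm2-/- (SD, n = 3 each), so the genotypes overlapped. The sum of the 9 members was 4196 ± 85.7, 4269 ± 421 and 4176 ± 199 normalized counts in the same order. Within the reductases, Txnrd3 made up 91.2% ± 5.75 of the summed normalized counts in wildtype, 91.3% ± 2.75 in heterozygous and 78.8% ± 2.498 in deficient testes (SD, n = 3 each). The Prm2-/- libraries lay between 76.4% and 81.4% and the other 6 between 84.7% and 95.4%. This ratio was chosen after the values of Txnrd1 and Txnrd3 were seen. For each Txn1 count there were between 13.5 and 62.3 Txndc2 counts, and the value of 62.3 came from the Prm2+/+ library with the low Txn1 count.

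The genes whose levels moved most like those of the spermatid members over the 9 libraries were named from 5890 genes with a mean of at least 100 normalized counts. For Txndc2 these were Sec23a (r = 0.91) and 1700001O22Rik (r = 0.90), and for Txndc8 they were Hspe1 (r = 0.92) and Smurf2 (r = 0.89). Nme8 was most like Zc3h15 (r = 0.95) and Mgat4c (r = 0.95). Txnrd3 was most like Spag17 (r = 0.96), a protein of the axoneme, and Cep85l (r = 0.95). Among the members themselves the strongest correlations were -0.70 between Txnrd1 and Txnl1 and 0.59 between Txndc2 and Nme8. These are Pearson correlations of log2(normalized count + 1) over libraries that also differ in genotype, and each match is the highest among all genes compared.

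Genes that work with thioredoxins were counted in the same way. Of 43 genes in 4 lists, 39 were tested, and Txnl4a and Tmx2 were not analysed here. Limma called 0 of them in each comparison, while DESeq2 on all 9 samples called 0 for Prm2-/- against Prm2+/+, 2 (Prdx6 and Rrm1) for Prm2+/- against Prm2+/+ and 1 (Txnip) for Prm2-/- against Prm2+/-. Over all 14893 genes tested, this DESeq2 fit called 101 higher and 30 lower for Prm2-/- against Prm2+/+. For Prm2+/- against Prm2+/+ it called 29 higher and 30 lower. No alternative fit called more than 129 higher or 29 lower for Prm2-/- against Prm2+/-. An unadjusted limma p under 0.05 was found for 4 of 39 between Prm2-/- and Prm2+/+, where 7.33% of all genes tested had one. Between Prm2+/- and Prm2+/+ it was found for 2, against 4.24% of all genes tested, and between Prm2-/- and Prm2+/- for 6, against 5.44%. For Prm2-/- against Prm2+/+ the LFC was above 0 for 19 of 39 with a median of -0.01, and the libraries did not overlap for 6, where 14.0% of all genes tested showed no overlap. The 16 tested genes listed as clients and regulators encode peroxiredoxins, subunits of ribonucleotide reductase and other proteins grouped around thioredoxin. They had 10 above 0 and a median of 0.06. The 12 other proteins with a thioredoxin fold had 3 above 0 and a median of -0.13. The glutaredoxin system, a parallel route of disulfide reduction that runs on glutathione, had 3 of 5 above 0 and a median of 0.42. The factors that insert selenocysteine had 3 of 6 above 0 and a median of 0.05.

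**Figure D4:**
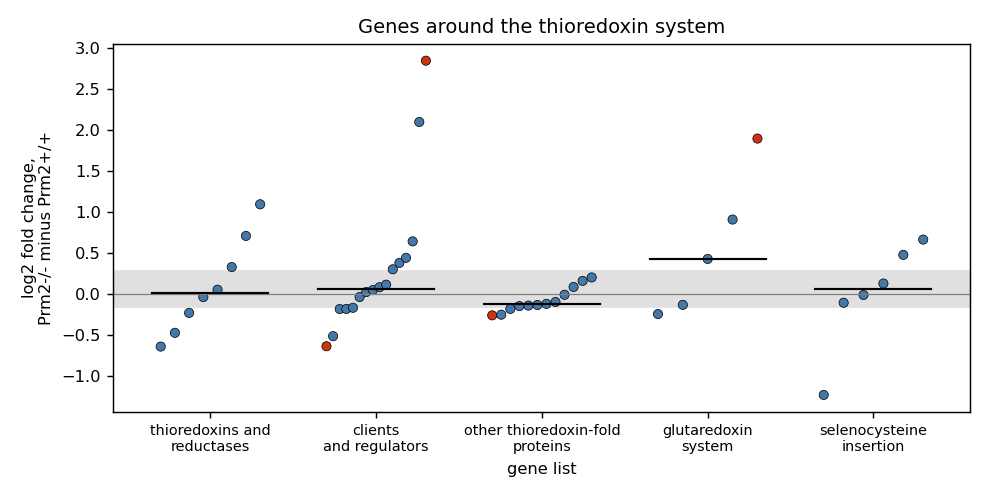
LFC between Prm2-/- and Prm2+/+ testes, on the log2(normalized count + 1) scale, for the tested members and the genes of the 4 lists, with 1 point a gene in order of LFC within each list. Red points have an unadjusted p under 0.05, short lines are the medians, and the grey band spans the lower to the upper quartile of all genes tested, -0.16 to 0.28. The red points are Prdx2, Txnip, Tmx1 and Glrx5, and none of them passed the adjusted threshold.

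At the ends of the list of clients and regulators were Prdx2, Rrm2, Prdx6 and Txnip. Txnip, whose protein binds thioredoxin and blocks it, had 6.65, 10.7 and 35.4 normalized counts in Prm2+/+, 3.95, 10.96 and 9.72 in Prm2+/-, and 283, 16.2 and 246 in Prm2-/-. Of the Prm2-/- libraries 2 were far above all others, and the other lay within the Prm2+/+ range. The LFC was 2.85 against Prm2+/+ (95% interval 0.32 to 5.37, unadjusted p = 0.0318, adjusted p = 0.641, limma) and 3.63 against Prm2+/- (adjusted p = 0.792). DESeq2 called the second of these on all samples (LFC 4.47, adjusted p = 0.00216), and the first on the 6 samples compared (LFC 3.37, adjusted p = 0.0317).

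Prdx2, a peroxiredoxin that thioredoxin recharges, had 192, 183 and 196 normalized counts in Prm2+/+, 194, 136 and 167 in Prm2+/-, and 118, 150.2 and 101 in Prm2-/-. All Prm2-/- libraries were below all Prm2+/+ libraries, with an LFC of -0.64 (SE 0.18, 95% interval -1.05 to -0.23, unadjusted p = 0.00705, adjusted p = 0.494, limma). Rrm2, a subunit of ribonucleotide reductase, had an LFC of -0.52 (adjusted p = 0.730, limma). Prdx6 had between 522 and 860 normalized counts in 3 libraries, 2 of Prm2+/- and 1 of Prm2-/-, and at most 19.0 in the other 6, so that its LFC of 2.097 (adjusted p = 0.784, limma) rests on 1 library.

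Among the other thioredoxin-fold proteins, Tmx1, a membrane-bound member of the endoplasmic reticulum, had 295.5, 296 and 333 normalized counts in Prm2+/+, 339, 290.5 and 325 in Prm2+/-, and 267, 259 and 242 in Prm2-/-. The Prm2-/- libraries were below all 6 others, with an LFC of -0.27 against Prm2+/+ (SE 0.10, unadjusted p = 0.0308, adjusted p = 0.641, limma) and -0.31 against Prm2+/- (adjusted p = 0.870). Nxn followed with -0.26. At the upper end were Txndc11 with an LFC of 0.16 and Txndc9 with 0.20, and Txndc9 had between 479 and 555 normalized counts in 1 library of each genotype and between 58.6 and 99.4 in the rest.

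Rrm1 and Glrx5 are named because an alternative fit called them. Rrm1, the large subunit of ribonucleotide reductase, had 355, 318 and 283 normalized counts in Prm2+/+, 195, 69.4 and 96.3 in Prm2+/-, and 273, 311 and 255 in Prm2-/-. All Prm2+/- libraries lay below the other 6, with an LFC of -1.53 against Prm2+/+ (SE 0.33, unadjusted p = 0.00173, adjusted p = 0.614, limma). DESeq2 called this difference (LFC -1.41, adjusted p = 0.0300). Glrx5, a mitochondrial glutaredoxin, had 18.05, 126 and 14.4 normalized counts in Prm2+/+ against 92.3 to 157 in the other 6 libraries. The LFC for Prm2-/- against Prm2+/+ was 1.89 (adjusted p = 0.640, limma), and 2.86 (adjusted p = 0.00716) without the Prm2+/+ library at 126.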

How the data were processed

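Testis RNA of 9 males was sequenced from the 3′ end with QuantSeq as 50 bp reads. According to the paper and the labels, the authors trimmed with Trim Galore 0.4.5, mapped to GRCm38 with HISAT2 2.1, counted genes with StringTie 1.3.3 and removed pseudogenes. The deposited values are a signal, namely counts that the authors divided by 1 size factor per library with DESeq2. Multiplied back, 100% of the values gave whole counts within 0.01, and these were used for edgeR and DESeq2 (in Prm2+/- replicate 1 the factor is almost 1, which makes the check weaker there).

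Genes passing filterByExpr (14893) were fitted with limma (lmFit, eBayes with trend) on log2(value + 1), with genotype as the only term, and Benjamini-Hochberg adjustment. A fold change on this scale understates the change of low genes. StringTie can split or join neighbouring genes, and how reads of the members were assigned was not checked. The scripts were tested on simulated data. The members and lists were chosen with earlier results of these data known. Named are the members, Prm2, list genes that were called or else the 2 lowest and 2 highest LFC of each list with at least 10 tested, the 2 genes most correlated with Txndc2, Txndc8, Nme8 and Txnrd3, and genes named after their values were seen. Positions and sequences come from GENCODE M21. Labels do not say more of the replicates than their number, and the paper describes them as 3 biological replicates per genotype. The p-values set each genotype difference against the spread between these samples. The software was limma 3.58.1, DESeq2 1.42.0 and edgeR 4.0.16 in R 4.3.3, with matplotlib 3.10.9, pandas 2.3.3 and numpy 2.4.6 in Python 3.11.15.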

Additional observations from a re-analysis of the deposited data

How the results depend on the processing

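Across 19 alternatives in each comparison, 445 of 456 LFCs of the members kept their direction and their side of the threshold. DESeq2 on the 6 samples compared called 1 member, Txnrd1, between Prm2-/- and Prm2+/-. The 10 changes of direction all came from leaving out 1 library. With 1 library left out the LFC ranged for Prm2-/- against Prm2+/+ from -0.10 to 0.0031 for Nme8. For Prm2+/- against Prm2+/+ it ranged from -0.019 to 0.12 for Txndc8, from -0.046 to 0.064 for Nme8, from -0.75 to 0.18 for Txnrd1 and from -0.17 to 0.080 for Txn2. For Prm2-/- against Prm2+/- it ranged from -0.11 to 0.0073 for Txndc2 and from -0.39 to 0.088 for Txnrd3.

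Of the list genes, DESeq2 called 2 (Prdx6 and Rrm1) between Prm2+/- and Prm2+/+ and 1 (Txnip) between Prm2-/- and Prm2+/-. On the 6 samples compared it called 1 (Txnip) for Prm2-/- against Prm2+/+, 1 (Prdx6) for Prm2+/- against Prm2+/+ and 1 (Txnip) for Prm2-/- against Prm2+/-. Leaving out 1 library gave 0 to 1 called list genes in each comparison. Over all genes, these fits called 20 to 58 higher and 2 to 12 lower for Prm2-/- against Prm2+/+. The ranges were 6 to 39 and 3 to 15 for Prm2+/- against Prm2+/+, and 17 to 44 and 3 to 10 for Prm2-/- against Prm2+/-. The cause of the changes among the list genes was not tested. Over all genes, DESeq2 on the 6 samples of Prm2+/- and Prm2+/+ called 31 higher and 28 lower. Over all genes, the counts called higher in Prm2-/- than in Prm2+/+ ran from 8 (at least 10 counts in every library) to 167 (DESeq2 on 6 samples), against 23, and those called lower from 1 to 64, against 4.

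Samples with the same replicate number deviated from their genotype means with correlations between -0.04 and 0.04, against -0.04 to 0.05 for other numbers. No pairing by number thus showed over all genes tested, but a pairing limited to some genes would not show in this. With a replicate block 0 members were called in each comparison, and 14 genes were called higher and 1 lower between Prm2-/- and Prm2+/+. Precision is limited by 3 libraries a genotype and by depth, with 32 to 180 reads for Txn1. The intervals given are not adjusted for the number of genes, so differences beyond them could also miss the threshold.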
